A study of Mus musculus with 2 samples.

Results

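The Nlrp genes of the oocyte other than Nlrp5 were compared between the second polar body (PB2) and the one-cell zygote. They were chosen by name as Nlrp2, Nlrp4a, Nlrp4b, Nlrp4e, Nlrp4f, Nlrp9a, Nlrp9b, Nlrp9c and Nlrp14, and all 9 were found among the 11262 genes of the deposited table. PB2 is the small cell that the egg extrudes when it completes meiosis after fertilization, and the zygote is the large cell that stays and goes on to cleave. Both were taken from untreated C57BL/6 mouse embryos (the study's methods name C57BL/6N as its usual strain) of superovulated females, freed of granulosa cells with hyaluronidase and cultured in KSOM. Late in the one-cell stage the zona pellucida was dissolved with acid Tyrode's solution, and PB2 was detached in trypsin by pipetting. Each library was made from pooled cells, whose polyadenylated RNA was amplified as full-length cDNA. There was 1 library of PB2 and 1 of the zygote, so the spread between samples is unknown, no test was possible and every difference describes these libraries. The age of the females is not given in the sources used here.

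NLRP proteins carry a pyrin domain, a nucleotide-binding NACHT domain and leucine-rich repeats. Some of them, such as NLRP3, assemble inflammasomes in immune cells, while a separate branch of the family is expressed mainly in oocytes and has been multiplied into clusters of paralogs in rodents. Their mRNAs accumulate while the oocyte grows and are carried into the embryo, where maternal transcripts are used and then degraded. Loss of several of these genes in the mother, among them Nlrp5, Nlrp2 and Nlrp14, is known to impair early development of the offspring.

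The Nlrp4 genes are close copies of one another, as are the Nlrp9 genes, so that a short sequencing read may match more than one copy. The first 60 bases of each coding sequence are shown here for the Nlrp4 and Nlrp9 members, since they show how near the copies are at this end. They were read 5′ to 3′ from the longest protein-coding transcript in GENCODE M21 (GRCm38), and capitals mark the bases that differ from Nlrp4a in the Nlrp4 genes and from Nlrp9a in the Nlrp9 genes. Within these bases Nlrp4e had 3, Nlrp4f 8 and Nlrp4b 9 differences from Nlrp4a, and Nlrp9c had 6 and Nlrp9b 11 differences from Nlrp9a.
Nlrp4a, chr7:26444212-26444271, plus strand: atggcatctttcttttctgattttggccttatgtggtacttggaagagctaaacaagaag
Nlrp4e, chr7:23301282-23301341, plus strand: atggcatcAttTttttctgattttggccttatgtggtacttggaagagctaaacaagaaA
Nlrp4f, chr13:65199383-65199442, minus strand: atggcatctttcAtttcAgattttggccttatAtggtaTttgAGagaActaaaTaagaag
Nlrp4b, chr7:10710126-10710185, plus strand: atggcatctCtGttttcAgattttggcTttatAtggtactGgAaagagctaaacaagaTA
Nlrp9a, chr7:26550812-26550871, plus strand: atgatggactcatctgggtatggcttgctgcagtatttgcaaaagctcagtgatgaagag
Nlrp9c, chr7:26394179-26394238, minus strand: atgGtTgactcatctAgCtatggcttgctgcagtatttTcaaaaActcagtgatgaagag
Nlrp9b, chr7:20019172-20019231, plus strand: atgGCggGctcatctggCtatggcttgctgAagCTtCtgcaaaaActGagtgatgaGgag

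Over the whole coding sequence, identity was counted over aligned bases without gaps. Among the 36 pairs of members it ranged from 57.5% for Nlrp2 and Nlrp14 to 87.7% for Nlrp9a and Nlrp9c. Identity within the Nlrp4 genes was 77.7% to 85.9% and within the Nlrp9 genes 82.8% to 87.7%. The longest stretch without a difference between the transcripts of any pair of members was 129 bases, in Nlrp9a and Nlrp9b. Among the Nlrp4 genes it was 64 bases, in Nlrp4a and Nlrp4e. The map of coding identity shows the Nlrp4 and Nlrp9 genes as separate blocks, while Nlrp14 and Nlrp2 reached at most 61.0% with any other member.

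**Figure D1:**
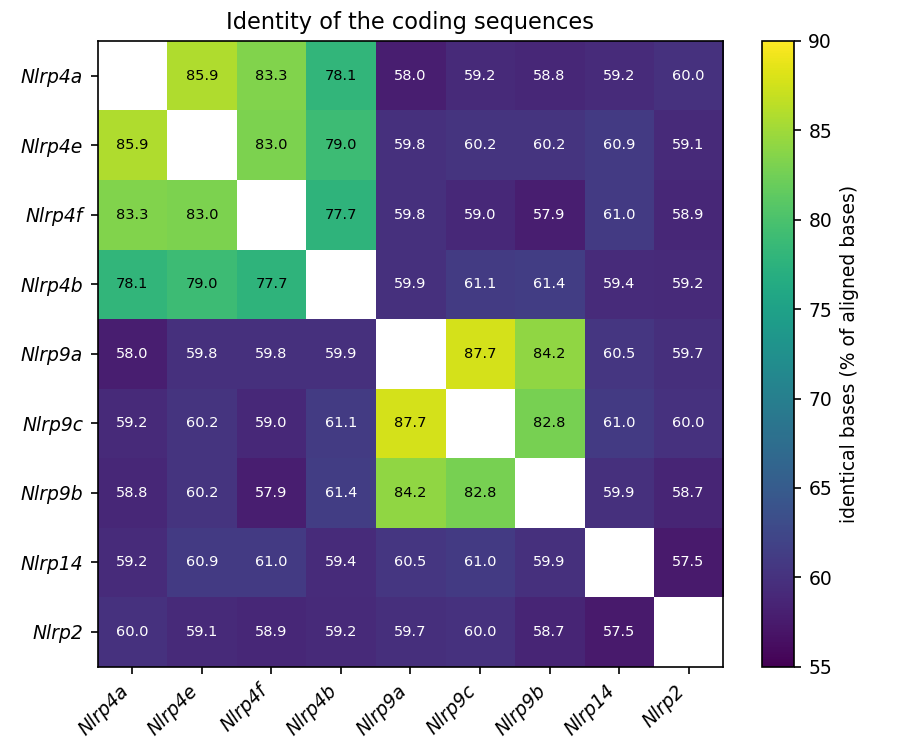
Identical bases as a percentage of aligned coding bases for each pair of the 9 Nlrp genes, with the value written in each cell and the diagonal left empty. The 4 Nlrp4 genes (77.7% to 85.9%) and the 3 Nlrp9 genes (82.8% to 87.7%) form blocks, and pairs outside the blocks lie between 57.5% and 61.4%.

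By the deposited values all 9 Nlrp genes were lower in PB2 than in the zygote, although Nlrp4e and Nlrp4f turned slightly higher once a trend on GC content was removed. The difference was close to 0 in Nlrp4e and Nlrp4f and more than 2-fold in Nlrp4b, Nlrp9b and Nlrp9c. Levels are in TPM, the share of a transcript in its library adjusted for transcript length, so that genes can be compared with each other. The genes summed to 3190.2 TPM in PB2 against 4973.2 in the zygote, or 0.319% and 0.497% of a full library. TPM gives shares, so a smaller share of the RNA and fewer transcripts per cell cannot be told apart.

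The Nlrp9 genes showed the lowest ratios as a group. Nlrp9b takes part in an inflammasome of the intestinal epithelium, and the products of the Nlrp9 genes have no well-established role in the oocyte. Nlrp9c had 345.5 TPM in PB2 against 813.9 in the zygote, 2.36-fold higher in the zygote. Nlrp9b had 219.9 TPM in PB2 against 515.4 in the zygote, 2.34-fold higher in the zygote. Both thus had nearly the same ratio at different levels. Nlrp9a, which is nearer to Nlrp9c in sequence than Nlrp9b is, had 210.7 TPM in PB2 against 379.0 in the zygote, a PB2 level 0.556 times that of the zygote. The summed level of the 3 Nlrp9 genes was 776.1 TPM in PB2 against 1708.3 in the zygote.

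The Nlrp4 genes differed among themselves. Nlrp4f, whose product associates with the subcortical maternal complex of the egg cortex, was the most abundant member in both libraries, with 880.9 TPM in PB2 against 922.7 in the zygote. Nlrp4e had 184.0 TPM in PB2 against 184.7 in the zygote. These were the genes with the least difference, with a PB2 level 0.955 times that of the zygote in Nlrp4f and 0.996 times in Nlrp4e. Nlrp4a had 596.0 TPM in PB2 against 843.1 in the zygote, 1.41-fold higher in the zygote. Nlrp4b had 192.0 TPM in PB2 against 412.2 in the zygote, 2.15-fold higher in the zygote, and so stood nearer to the Nlrp9 genes than to the other Nlrp4 genes. The summed level of the 4 Nlrp4 genes was 1852.9 TPM in PB2 against 2362.7 in the zygote.

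Nlrp14 and Nlrp2 are single genes outside these clusters of copies. Nlrp14, whose maternal loss stops embryos in early cleavage, had 533.7 TPM in PB2 against 855.0 in the zygote, 1.60-fold higher in the zygote. Nlrp2, a maternal-effect gene linked to the subcortical maternal complex, was the least abundant member, with 27.5 TPM in PB2 against 47.2 in the zygote, 1.72-fold higher in the zygote. Apart from Nlrp2 the genes were among the abundant transcripts. In the zygote 8 of the 9 exceeded at least 93.6% of the genes of the table, and in PB2 at least 93.1%.

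**Figure D2:**
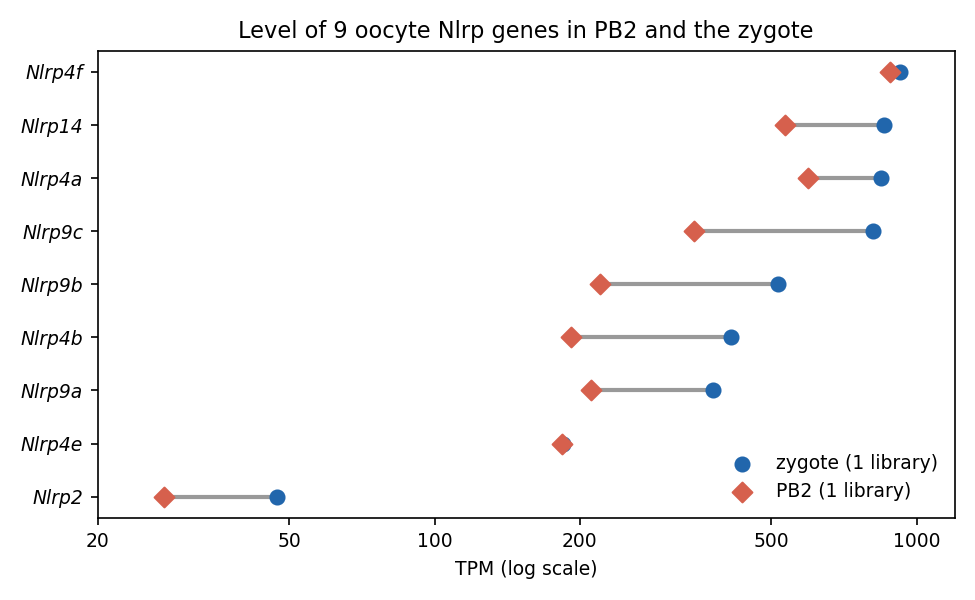
Level of each Nlrp gene in TPM, on a log scale, in the 1 zygote library (circles) and the 1 PB2 library (diamonds), in the order of the zygote. By these deposited values, without the GC trend removed, the PB2 value lies to the left for every gene, by the least for Nlrp4e (184.0 and 184.7 TPM) and by the most for Nlrp9c (345.5 and 813.9 TPM).

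The order of the genes was similar in both libraries but not the same. In the zygote it ran from Nlrp4f through Nlrp14, Nlrp4a, Nlrp9c, Nlrp9b, Nlrp4b, Nlrp9a and Nlrp4e to Nlrp2. In PB2 Nlrp4a stood above Nlrp14 and Nlrp9a above Nlrp4b, while the ranks of the other 5 genes were the same. Nlrp4f, Nlrp14, Nlrp4a and Nlrp9c lay between 813.9 and 922.7 TPM in the zygote and spread out to between 345.5 and 880.9 TPM in PB2. Values were deposited to 1 decimal, so rounding does not change this order, but whether neighbours in it would differ beyond the spread between samples is unknown.

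Ratios between genes of 1 library do not depend on how that library was scaled. For each transcript of Nlrp4f by TPM, the zygote held 0.882 of Nlrp9c and PB2 held 0.392. For Nlrp9b the values were 0.559 in the zygote and 0.250 in PB2, and for Nlrp9a they were 0.411 and 0.239. Nlrp4b stood at 0.447 of Nlrp4f in the zygote and 0.218 in PB2. Nlrp4a changed less, from 0.914 in the zygote to 0.677 in PB2, as did Nlrp14, from 0.927 to 0.606. Nlrp4e kept close to the same proportion of Nlrp4f, with 0.200 in the zygote and 0.209 in PB2.

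The make-up of the family in each library differed accordingly. Nlrp4f took 18.6% of the summed Nlrp level in the zygote and 27.6% in PB2. Together the 4 Nlrp4 genes took 47.5% in the zygote and 58.1% in PB2, and the 3 Nlrp9 genes 34.4% in the zygote and 24.3% in PB2. The share of Nlrp14 was 17.2% in the zygote and 16.7% in PB2, and that of Nlrp2 stayed under 1% in both.

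**Figure D3:**
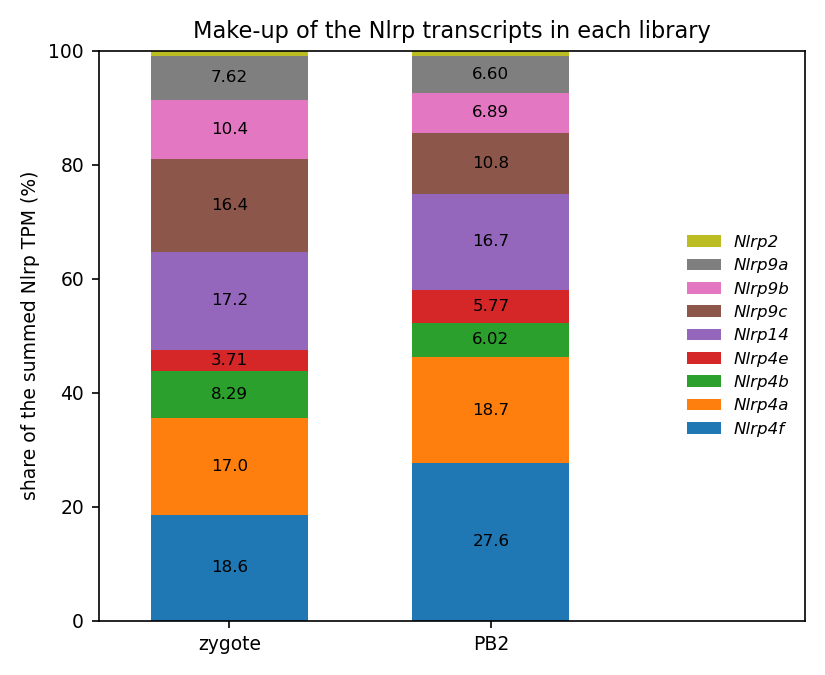
Share of each Nlrp gene in the summed TPM of the 9 genes (%), stacked to 100% for the 1 zygote library and the 1 PB2 library. Nlrp4f is the largest share in both (18.6% in the zygote, 27.6% in PB2), and the Nlrp9 genes together fill 34.4% in the zygote and 24.3% in PB2.

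To set the genes beside the rest of the table, the log2 ratio was taken as log2((PB2 TPM + 1)/(zygote TPM + 1)) for the 10645 genes with at least 1 TPM in either library, so that negative values are lower in PB2. The added 1 TPM keeps low genes from giving extreme ratios and changes little at the level of these genes. All 9 Nlrp genes were compared. At least 2-fold higher in the zygote on this scale were 3 of them, Nlrp4b, Nlrp9b and Nlrp9c, beside 8.09% of all genes compared. At least 2-fold higher in PB2 were 0 of them, beside 18.9% of all genes compared, 4.14% of the other genes within the GC range of the Nlrp genes and 10.5% of those within their range of zygote TPM. The count of 3 became 1 with the trend on GC content removed, beside 11.0% of all genes compared. It became 6 with the trend on transcript length removed, which also centres the ratios. The share of all genes compared was not computed with that trend removed. The median log2 ratio of the Nlrp genes was -0.76, while that of all genes compared was 0.21. Each Nlrp gene lay below 0 with the deposited values, as did 4262 of all genes compared.

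The log2 ratios of the single genes spanned from -1.23 in Nlrp9c and in Nlrp9b to -0.01 in Nlrp4e. Between these lay Nlrp4b at -1.10, Nlrp9a at -0.84, Nlrp2 at -0.76, Nlrp14 at -0.68, Nlrp4a at -0.50 and Nlrp4f at -0.07. Of all genes compared, 474 had a lower log2 ratio than Nlrp9c and 4257 a lower one than Nlrp4e, so that the family ranged from near the low end of the table to near its middle. Relative to the median of all genes the log2 ratio was -1.44 in Nlrp9c and -0.21 in Nlrp4e.

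**Figure D4:**
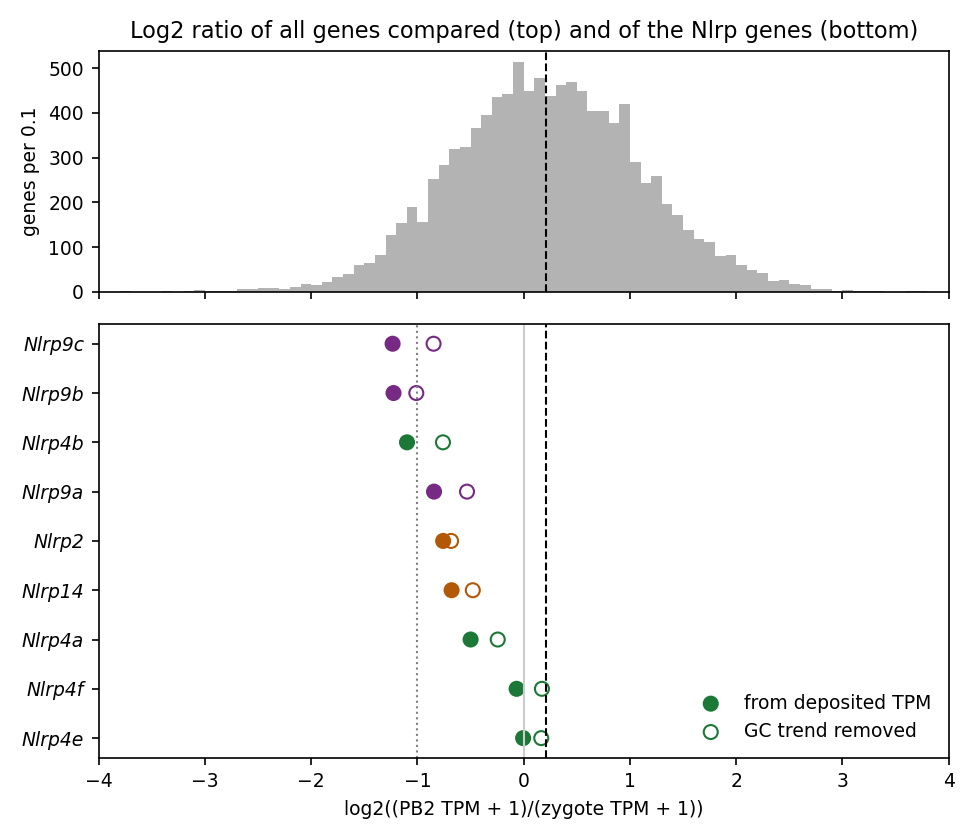
Top, number of genes per 0.1 of log2 ratio among the 10645 genes compared. Bottom, the log2 ratio of each Nlrp gene from the deposited TPM (filled) and after subtracting the GC trend (open), with green for Nlrp4, purple for Nlrp9 and orange for Nlrp14 and Nlrp2. The dashed line is the median of all genes compared (0.21) and the dotted line is 2-fold; all filled points lie left of 0, the open ones of Nlrp4e and Nlrp4f right of it, and the filled ones of Nlrp4b, Nlrp9b and Nlrp9c lie past the dotted line.

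Across the table the log2 ratio moved with transcript GC content, and the Nlrp transcripts are poor in GC. Their GC content ran from 39.0% in Nlrp9c to 44.7% in Nlrp2, against a median of 49.1% over all genes compared. Divided into 10 groups of like size by GC content, the genes compared had a median log2 ratio of -0.36 in the group lowest in GC, which holds 3 of the Nlrp genes, and of -0.14 in the next, which holds 5. In the group highest in GC the median was 0.93. Among the 2342 other genes compared that lay within the GC range of the Nlrp genes, the median log2 ratio was -0.20, 60.9% lay below 0 and 14.2% passed 2-fold towards the zygote.

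With the trend on GC content subtracted, the median of the Nlrp genes was -0.53, beside 0.01 for all genes compared. Of the 9 Nlrp genes, 7 stayed below 0. The share of all genes below 0 on this scale was not counted, but with a median of 0.01 about as many lie above 0 as below it. Nlrp9b then had -1.01, Nlrp9c -0.85, Nlrp4b -0.76, Nlrp2 -0.68, Nlrp9a -0.53, Nlrp14 -0.48 and Nlrp4a -0.24, while Nlrp4e and Nlrp4f turned to 0.17 each. Only Nlrp9b was then past 2-fold. The Nlrp9 genes stayed below Nlrp4a, Nlrp4e and Nlrp4f on this scale too. The part of amplification or of GC content in these values was not tested.

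**Figure D5:**
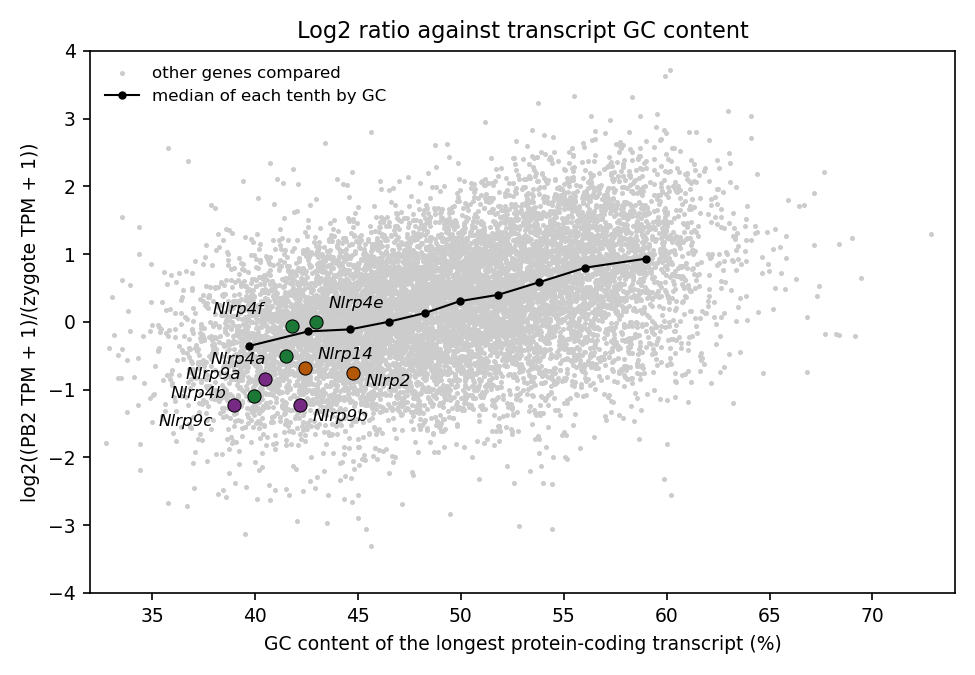
Log2 ratio of each gene compared against the GC content of its longest protein-coding transcript (%), with the other genes in grey, the Nlrp genes coloured as Nlrp4 (green), Nlrp9 (purple) and the rest (orange), and black points for the median of each of 10 groups by GC. The Nlrp genes sit between 39.0% and 44.7% GC, where the medians are below 0, and 7 of the 9 lie below them.

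How many reads could have come from more than one copy was read from the transcripts. Of the 100-base words of each transcript, 11.5% of those of Nlrp4e occurred in a transcript of another gene, most of them in the unprocessed pseudogenes Gm16443, Gm4541, Gm8486, Gm8685 and Gm8728, which were not analysed here. The share was 1.36% in Nlrp9b, 0.927% in Nlrp9a, 0.449% in Nlrp9c and 0.145% in Nlrp4f, and 0% in Nlrp2, Nlrp4a, Nlrp4b and Nlrp14. With words of 50 bases it was 36.9% in Nlrp4e and at most 7.08% in the others, and with words of 150 bases 3.40% in Nlrp4e and 0% in the others. Read length and the handling of reads with several alignments are not given in the sources used here, so the level of Nlrp4e is the most exposed to misassigned reads. Nlrp2 overlaps Gm5065 on the opposite strand by 499 bases at its 5′ end. Gm5065 had 168.8 TPM in PB2 against 332.9 in the zygote, and without knowledge of strand, reads of the overlap cannot be assigned to either gene.

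The genes lie in several places of the genome. On GRCm38, 8 of the 9 are on chromosome 7 and Nlrp4f is on chromosome 13, from 65177111 to 65205977. Nlrp9c (26322473 to 26403700, minus strand), Nlrp4a (26435113 to 26476142, plus strand) and Nlrp9a (26535023 to 26575615, plus strand) lie near each other in this order, with log2 ratios of -1.23, -0.50 and -0.84. Nlrp2 (5298547 to 5351035, minus strand), Nlrp4b (10687789 to 10730168, plus strand), Nlrp9b (19991465 to 20073306, plus strand), Nlrp4e (23301192 to 23362277, plus strand) and Nlrp14 (107166990 to 107198102, plus strand) lie apart.
Within 500 kb of a member, 39 other genes of the table were compared, and their median log2 ratio was 0.44. It was 0.04 with the GC trend removed and 0.18 with the length trend removed. Among these neighbours 2 (5.13%) passed 2-fold towards the zygote and 10 (25.6%) towards PB2, beside 8.09% and 18.9% of all genes compared. The neighbours were unevenly spread, with 13 near Nlrp2 (median log2 ratio 0.91) and 13 near Nlrp9b (0.44). The median was -0.82 for the 3 near Nlrp4b, and Nlrp5, the 1 near Nlrp4e, had -0.43. For the same 3 genes near Nlrp4a, Nlrp9a and Nlrp9c it was 0.60. It was 0.24 for the 2 near Nlrp4f and 0.53 for the 4 near Nlrp14. The neighbours highest in TPM were Rfpl4, an oocyte gene beside Nlrp2 with 10652 TPM in PB2 against 12846 in the zygote, and Gm5065.

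Promoter sequences from RefSeq (GRCm38.p6), 250 bases before to 50 bases after the start, matched 8 of the 9 genes with 10 promoters, and Nlrp14 had no entry. Those of Nlrp9a and Nlrp9c are shown because these genes face away from each other on either side of Nlrp4a. Much of their promoter sequence is also shared. Both promoters were identical in 244 of 253 aligned bases, 96.4%, with 106 bases in 1 unbroken run. This count leaves out gaps, and Nlrp9a holds a stretch rich in A and T that Nlrp9c lacks. Capitals mark CCAAT or its reverse complement ATTGG.
Nlrp9a, chr7:26534773-26535072, plus strand: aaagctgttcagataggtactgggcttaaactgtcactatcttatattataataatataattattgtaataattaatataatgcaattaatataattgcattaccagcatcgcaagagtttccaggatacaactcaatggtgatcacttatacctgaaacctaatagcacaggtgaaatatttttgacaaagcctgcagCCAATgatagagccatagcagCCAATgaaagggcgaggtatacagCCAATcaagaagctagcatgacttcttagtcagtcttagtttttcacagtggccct
Nlrp9c, chr7:26403651-26403950, minus strand: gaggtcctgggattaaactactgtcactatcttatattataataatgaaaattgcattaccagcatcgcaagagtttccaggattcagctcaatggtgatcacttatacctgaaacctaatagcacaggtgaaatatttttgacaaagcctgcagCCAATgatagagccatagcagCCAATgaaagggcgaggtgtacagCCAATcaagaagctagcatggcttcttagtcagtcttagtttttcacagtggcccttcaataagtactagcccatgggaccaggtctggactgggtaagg
Both hold 3 matches to CCAAT at the same spacing, and the annotated start of Nlrp9a lies nearer to them. CCAAT was chosen after these sequences were seen. On either strand it was found in 7 of the 10 promoters, of 6 genes, and in 37.4% of all 32851 promoters, with at least 2 matches in 11.7%. The E-box CAGGTG, found on either strand, occurred in the searched window of each Nlrp9 gene and in 20.2% of all promoters. No other member with a promoter entry had it, and Nlrp14 could not be searched. The matches of Nlrp9a and Nlrp9c lie in sequence that both share. In aligned bases the Nlrp9b window was 62.8% identical to that of Nlrp9a and 61.8% to that of Nlrp9c. The Nlrp9b window (20007773 to 20008072) lies within its GENCODE gene, which starts at 19991465. Whether it holds the promoter used in the oocyte was not tested. The E-box CACGTG occurred in 0 of the 10 promoters and in 7.15% of all promoters. TAATTG, a word bound by Nobox, was present in Nlrp9a and Nlrp9b and in 2628 of all promoters, and TAATTA in Nlrp9a and in 1738 of all promoters. Nlrp9c had neither word, and the matches of Nlrp9a lie in or at the edge of the stretch that Nlrp9c lacks. TATAAA was present in Nlrp9b and in 13.6% of all promoters. The position of the Nlrp9b window limits its TAATTG and TATAAA matches as well.

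The ends of the transcripts differed between the groups as well. The annotated stretch after the stop codon had 195 bases in Nlrp9a, 201 in Nlrp9b, 196 in Nlrp9c, 184 in Nlrp14 and 189 in Nlrp2. It was longer in each Nlrp4 gene, with 355 bases in Nlrp4e, 525 in Nlrp4b, 582 in Nlrp4f and 1003 in Nlrp4a. The cytoplasmic polyadenylation element, to which CPEB proteins bind to control the poly(A) tail of stored maternal mRNAs, was searched as TTTTAT or TTTTAAT on the transcript strand in the last 100 bases. It was found in Nlrp4a and Nlrp4f, 2 of the 9 genes, and in 16.7% of all genes with a complete protein-coding transcript. Both windows are shown because these libraries were made from polyadenylated RNA, with the match in capitals.
Nlrp4a, chr7:26476091-26476118, plus strand: tccaaTTTTATgtcatctctcactttcc
Nlrp4f, chr13:65177123-65177150, minus strand: ttgtgTTTTATattaaagaatagtagtc
The match starts 47 bases from the annotated end in Nlrp4a and 29 bases in Nlrp4f. These genes had log2 ratios of -0.50 and -0.07, and Nlrp4e, which had no match in the last 100 bases, had -0.01. Signals for poly(A) addition were searched in the last 100 bases as well. They were found in 7 of the 9 genes, and in 16340 of 21788 genes with a complete protein-coding transcript. Nlrp4f had 1 such signal, while Nlrp4a and Nlrp14 had 0, so the windows of Nlrp4a and Nlrp4f are not alike in this. Whether either TTTTAT acts on the poly(A) tail was not tested.

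Other genes of the NLR family and its pathways were read from lists written by hand. Of 12 other Nlrp genes, Nlrp5 and Nlrp4c were in the table. Nlrp5, a core member of the subcortical maternal complex, had 156.6 TPM in PB2 against 211.2 in the zygote, a log2 ratio of -0.43, within the range of the family. Nlrp4c, whose coding sequence is 93.9% identical to that of Nlrp4e, had 13.7 TPM in PB2 against 19.8 in the zygote, a log2 ratio of -0.50. Both were lower in PB2, and neither by 2-fold.
Of 11 NLR genes outside the Nlrp family, 4 were compared. Of these, 0 passed 2-fold in either direction, beside 8.09% of all genes compared towards the zygote and 18.9% towards PB2. Their median log2 ratio was 0.09, or -0.01 with the GC trend removed. Nlrc4, an inflammasome sensor adaptor, was the most abundant of them and the lowest in ratio, with 62.5 TPM in PB2 against 70.6 in the zygote. Nlrc3 was the highest in ratio, with 2.0 and 0.80 TPM. Of 11 inflammasome partners 2 were in the table. Txnip, a thioredoxin-binding protein that can bind NLRP3, had 482.4 TPM in PB2 against 208.7 in the zygote, at least 2-fold higher in PB2. Nek7, a kinase needed by the NLRP3 inflammasome, had 18.7 TPM in PB2 against 13.5 in the zygote. The adaptor Pycard, Casp1 and the interleukins of the list were not analysed here.

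Other oocyte genes were read from 3 lists. Of the 6 genes of the subcortical maternal complex, with Nlrp5 among them, 0 passed 2-fold towards the zygote and 2 towards PB2, and their median log2 ratio was 0.49, or 0.23 with the GC trend removed. They ran from -0.55 in Khdc3, with 2.2 TPM in PB2 against 3.7 in the zygote, to 2.19 in Zbed3, with 25991 and 5689 TPM. Of the 9 maternal-effect and imprint genes 1 was at least 2-fold higher in the zygote, Dppa3 with 8070 TPM in PB2 against 22562 in the zygote, and 3 in PB2, led by Zar1 with 1019.2 and 157.9 TPM. Their median was 0.01, or -0.47 with the GC trend removed, beside -0.53 for the Nlrp genes on that scale. Of the 6 oocyte transcription regulators compared, 1 was at least 2-fold higher in the zygote, Tbpl2 with 14.4 TPM in PB2 against 33.9 in the zygote, and 1 in PB2, Lhx8 with 147.7 and 42.0 TPM. Nobox was the most abundant of them, with 312.0 TPM in PB2 against 223.5 in the zygote. The median of these regulators was 0.08, or -0.18 with the GC trend removed.

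The libraries were checked against markers. All 12 oocyte markers were present in both, with a summed level of 30388 TPM in PB2 against 43299 in the zygote and log2 ratios from -1.48 in Dppa3 to 2.68 in Zar1. Of 18 cumulus and granulosa cell markers 7 were in the table, with a sum of 91.0 TPM in PB2 against 88.6 in the zygote, most of it Cyp19a1 with 70.9 and 72.2 TPM. In this list the log2 ratio was highest in Star, with 1.4 TPM in PB2 against 0.30, and lowest in Kitl, with 4.7 against 6.3. Cyp11a1, listed at 0 in the zygote, stood at 0.80 TPM in PB2, and Foxl2, Amh and Inha were not analysed here. Of 8 sperm markers 3 were in the table, and their sum was 23.7 TPM in PB2 against 21.9 in the zygote, most of it Prm2 with 22.0 and 19.8 TPM, while Akap4 had the lowest log2 ratio, with 0.60 and 1.0 TPM. Of 12 immune and blood cell markers 1 was in the table, Cd68 with 5.3 and 3.6 TPM. The part of other cells in the results was not tested.

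The genes nearest to the family were sought by distance from the median level of the Nlrp genes in each library, in the plane of both log2(TPM + 1) values. These medians, 219.9 TPM in PB2 against 515.4 in the zygote, are both the values of Nlrp9b, whose log2 ratio of -1.23 is lower than the family's median of -0.76, so the genes found are those nearest to Nlrp9b. They were Calm2, 1810037I17Rik, Smu1, Cdc42 and Nsmce2, at distances of 0.068 to 0.106 and with log2 ratios from -1.22 to -1.11. Likeness here rests on 2 libraries. Among the 2191 other genes compared that lay within the range of the Nlrp genes in zygote TPM, the median log2 ratio was -0.10, 1205 of them lay below 0 and 11.6% passed 2-fold towards the zygote.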

How the data were processed

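RNA-seq of PB2 and of the zygote was analysed, with 1 library each. Per the methods and the labels, the authors used CASAVA, HISAT2 2.0.4, HTSeq 0.6.1p1 with an Ensembl annotation and DESeq2 1.18.1. The methods give the rabbit assembly OryCun2.0 as their reference, the processing notes also name GRCm38, and the identifiers are of mouse. The authors deposited TPM values to 1 decimal, and how TPM was computed is not stated. TPM keeps no read number, so depth is unknown and no counting interval is given. Whether multiply aligned reads or strand were used in counting is not given in the sources used here. The PB2 column was matched to its sample by name. The other column, labelled only by stage, was assigned to the zygote as the remaining sample. The values sum to 89.8% of a full library in PB2 and 92.7% in the zygote.

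Genes with at least 1 TPM in either library were compared by log2 ratio with a pseudocount of 1, and 2-fold was the threshold for counts. No test was run. GC content, length and sequence were taken from each gene's longest protein-coding transcript in GENCODE M21, found for 11221 genes. Trends were fitted by loess (span 0.3). The fit on GC content was checked on a simulated pair of libraries of 10606 genes. The fit on length was not checked in this way. Coding sequences were aligned end to end (match 2, mismatch -1, gap opening -5, extension -0.5, end gaps free), and words were matched on both strands. The planned comparison of proteins was not made. The members and lists were chosen with earlier results of these data known. Named were all members, the other Nlrp genes in the table, from other lists the genes highest and lowest in ratio and highest in TPM, the 2 neighbours highest in TPM and the 5 genes nearest to the members' median. Cyp11a1, Gm5065's overlap, Nlrp4c's identity, CCAAT and the length after the stop codon were added after the values were seen. Alternatives were other pseudocounts, scalings, filters and thresholds, centring, and subtracting the trend on GC content or length. Those for the medians of the other lists and of the neighbours were chosen after seeing the data. Python 3.11.15, numpy 2.4.6, pandas 2.3.3, statsmodels 0.14.6, Biopython 1.88 and matplotlib 3.10.9 were used.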

Additional observations from a re-analysis of the deposited data

How the results depend on the processing

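No paired analysis was possible because there is 1 library of PB2 and 1 of the zygote. Of 172 recomputed values, 168 moved by less than a fixed limit (0.5 for a log2 ratio or a median, 1.5 times for a count), 4 moved by more, and 0 of those past 2-fold changed direction. The 4 were counts of Nlrp genes past 2-fold towards the zygote. This count of 3 became 6 with a threshold of 1.5-fold and 0 with 4-fold, as the thresholds dictate. It became 1 with the GC trend removed and 6 with the length trend removed, and these removals also centre the ratios. The cause beyond that was not tested. For the other thresholds and the length trend, the share of all genes compared was not computed. The median log2 ratio of the Nlrp genes ranged from -1.11 with the length trend removed to -0.53 with the GC trend removed, and the log2 ratio of their sums from -0.81 to -0.64. With the GC trend removed the median of the maternal-effect and imprint genes went from 0.01 to -0.47 and that of the neighbours from 0.44 to 0.04, both within the limit of 0.5. Nlrp4e and Nlrp4f were above 0 with the GC trend removed and below 0 under the other alternatives tried. No Nlrp transcript shared over 20% of its 100-base words with other genes, so that alternative left out none.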
